A study of Lupinus micranthus with 18 samples.

Results

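A set of 69 transcripts of lupin leaves had a group mean that was higher after 24 h of drought than in untreated leaves, and lower again after 72 h, in seedlings of both seed origins. They were found among 81470 unigenes, the assembled transcript units that the deposited table lists for Lupinus micranthus, a lupin of the legume family. The series measured leaf RNA of seedlings from 2 seed origins, Iceland and America, in 3 libraries for each of 6 groups: untreated Iceland, Iceland after 24 h and 72 h of drought by polyethylene glycol (PEG), untreated America, and America after 24 h and 72 h of PEG. Library totals ranged from 9603068 to 12605500 counts, and levels are given as CPM, a unigene's count per 1000000 counts of its library. The labels give no age of the seedlings, no dose of PEG and no hours for the untreated groups, so effects of PEG cannot be told apart from those of seedling age, harvest time or handling. Nothing in them tells if the 3 libraries of a group came from different plants, so the p-values below measure the spread among libraries, which may be technical.

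The members were chosen on these same libraries. L is log2(group mean CPM + 1). A member had a mean under 200 CPM over the 18 libraries and at least 1 CPM in each untreated group. In both origins L after 24 h exceeded that of untreated leaves by at least 0.8, and that of 72 h by at least 0.58. A limit of 150 members was not reached. All 69 also passed the filter on low counts that left 30895 unigenes for testing. The rise to 24 h and the fall to 72 h are therefore descriptions of how the set was chosen, with no test.

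PEG is a polymer used as an osmolyte to lower the water potential around roots, so that a plant takes up less water. In well studied plants osmotic stress raises the hormone abscisic acid, closes stomata and alters many transcripts, some only for a time: early regulators and feedback inhibitors of hormone signalling are known to peak and then decline, whereas protective proteins often stay high. The table pairs its unigenes with identifiers but with no gene names, functions or sequences. Which of these classes the members belong to was not analysed here, leaf markers could not be looked up, and unigenes that are pieces of 1 gene cannot be told from separate genes.

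Summed over the 69 members, the level in untreated Iceland leaves was 737, 713 and 1377 CPM in replicates 1 to 3. It was 4025, 2981 and 3106 CPM after 24 h and 1659, 1734 and 1862 CPM after 72 h. In America leaves the sums were 927, 856 and 985 CPM untreated, 2686, 3670 and 6306 CPM after 24 h, and 2190.4, 1768 and 1714 CPM after 72 h. In both origins all 3 libraries of 24 h lay above the others, and all 3 of 72 h lay between, without overlap of the 3 groups. Untreated Iceland replicate 3 and America 24 h replicate 3 each stood above the other libraries of their groups. Untreated Iceland replicate 3 also had the lowest mean correlation with its own group over all unigenes tested, 0.902 against 0.929 to 0.968 in the other libraries.

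**Figure D1:**
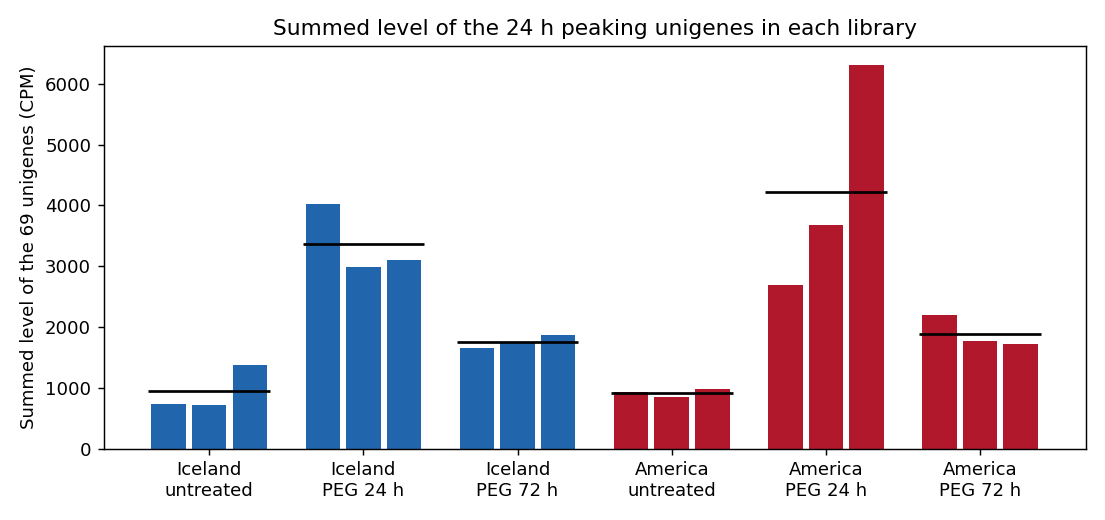
Summed CPM of the 69 unigenes (vertical axis) in each of 18 libraries, with replicates 1 to 3 as bars from left to right in each group and the group mean as a black line. The 24 h sums run from 2686 to 6306 CPM and the 72 h sums from 1659 to 2190.4 CPM, while untreated libraries stay at or under 1377 CPM.

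The members rose and declined by different amounts. In Iceland the difference in L between 24 h and untreated leaves ran from 0.84 to 4.17, with a median of 1.78, and in America from 0.88 to 4.67, with a median of 2.20. The fall between 24 h and 72 h had a median of 0.91 in Iceland and 1.10 in America, with the largest at 2.53 and 3.47. Across the 69 members the sizes of the rise in Iceland and America correlated at r = 0.456 and those of the fall at r = 0.305, given as descriptions of members that the same rule bounds in both origins. Unigene0025447 and Unigene0056126 were the last inside the threshold of the fall, with a smaller fall of 0.581 and 0.589 on the log2 scale, and Unigene0000335 and Unigene0008219 lay just outside it at 0.579 and 0.575. The threshold cuts a continuous range: 2329 unigenes met every other condition.

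At 72 h the mean of most members still stood above that of untreated leaves. The median share of the 24 h rise that was left at 72 h was 45.4% in Iceland and 46.4% in America, on the scale of L. The level at 72 h was at least 0.58 above untreated in 42 members in Iceland and 44 in America, of which 31 were the same unigenes. It was within 0.58 of untreated in 27 and 23, with 13 in common, and at least 0.58 below it in 0 and 2. L rests on column totals, and the edgeR fit, which rescales them, gave lower values at 72 h. The median difference from untreated was 0.80 in Iceland and 0.91 in America on L, and 0.67 in each in the fit. Below untreated were 6 members in Iceland and 7 in America on L, and 15 and 14 in the fit. In the fit across all unigenes (edgeR, adjusted p under 0.05) 18 members were higher at 72 h than untreated in Iceland, where 23.4% of all unigenes tested were called higher, and 16 in America, where 18.4% were. Without 1 library the 18 became 9 (untreated Iceland replicate 1) or 8 (untreated Iceland replicate 2), and the 16 became 10 (America 72 h replicate 1 or 2, or untreated America replicate 2) or 9 (untreated America replicate 3). The libraries behind these counts also chose the members, so nothing is read from them. The value left at 72 h in Iceland and in America correlated at r = 0.288 across the members.

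**Figure D2:**
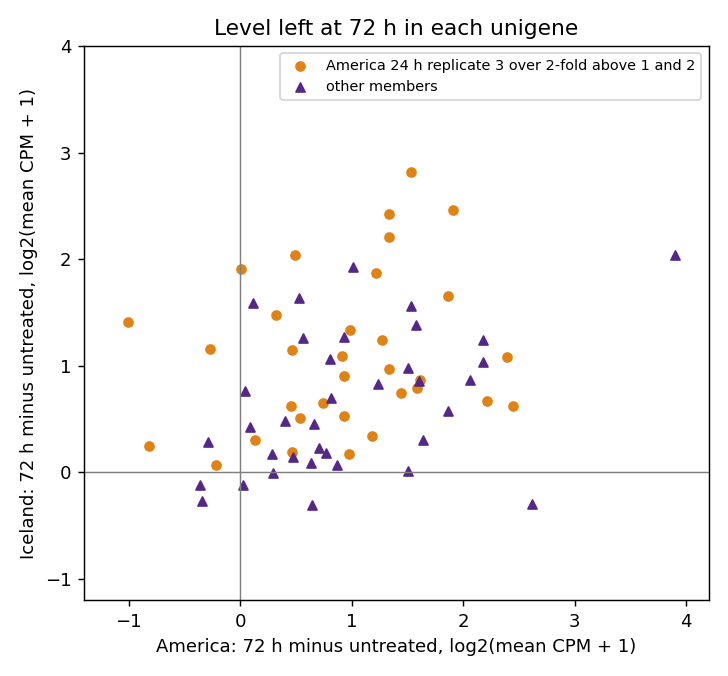
Difference between 72 h and untreated leaves in log2(mean CPM + 1) for each of the 69 unigenes, in America (horizontal axis) and Iceland (vertical axis). Orange circles are the 33 members whose America 24 h replicate 3 was over 2-fold above both other replicates and purple triangles the other 36. On this scale, which rests on column totals, 7 members in America and 6 in Iceland lie below 0.

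The most abundant members by mean CPM were Unigene0000229 and Unigene0065842. Unigene0000229 had 57.9, 66.9 and 103 CPM in untreated Iceland leaves, 266, 309.9 and 263 CPM after 24 h, and 150.1, 143 and 178 CPM after 72 h. In America leaves it had 25.7, 31.3 and 31.5 CPM untreated, 225, 249 and 249.7 CPM after 24 h, and 161, 128 and 121 CPM after 72 h. No group of an origin overlapped another. On the scale of L, not of CPM, 55.6% of the rise was left at 72 h in Iceland and 72.8% in America. Unigene0065842 had 84.2, 75 and 163 CPM in untreated Iceland leaves, 316, 187 and 286 CPM after 24 h, and 55.8, 91.1 and 114 CPM after 72 h. America leaves held 132, 115 and 57.1 CPM untreated, 236, 272 and 215 CPM after 24 h, and 179, 157 and 141 CPM after 72 h. Its 24 h libraries stood above all others in both origins, while at 72 h the Iceland libraries overlapped the untreated ones and the America libraries lay above them.

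The least abundant were Unigene0015191 and Unigene0050916, close to the lower limit of the rule. Unigene0015191 averaged 1.07 ± 0.192 CPM in untreated Iceland leaves, 3.69 ± 1.88 CPM after 24 h and 0.90 ± 0.595 CPM after 72 h. In America leaves it averaged 1.73 ± 0.927, 4.18 ± 0.708 and 1.12 ± 0.958 CPM (SD, n = 3 each). Unigene0050916 averaged 1.45 ± 0.109, 4.37 ± 1.12 and 1.80 ± 1.80 CPM in Iceland leaves and 1.24 ± 0.612, 3.76 ± 3.65 and 2.08 ± 0.428 CPM in America leaves, in the same order of groups. In America the 24 h libraries of Unigene0050916, at 2.21, 1.15 and 7.94 CPM, overlapped those of both other groups. Per length, the mean FPKM (counts scaled by unigene length and library total) of the members ran from 0.897 to 192. Its median was 11.9 against 4.45 over all unigenes tested. The lower limit of the rule in untreated leaves of both origins favours a higher level in the members. The length that the deposited FPKM implies had a median of 1380 bases in the members and 1362 bases in all unigenes tested.

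Members also lay far apart at 72 h. Unigene0016168 was among the 2 with the highest 72 h level relative to untreated leaves: it had 3.03, 4.32 and 7.81 CPM in untreated Iceland leaves, 49.4, 36.9 and 29.2 CPM after 24 h, and 18.3, 24.0 and 29.5 CPM after 72 h. America leaves held 0.555, 1.13 and 1.56 CPM untreated, 43.9, 41.7 and 70.5 CPM after 24 h, and 29.9, 28.6 and 31.8 CPM after 72 h. Its 72 h libraries stood above the untreated ones in both origins without overlap, and in Iceland the 24 h and 72 h libraries overlapped. On the scale of L, not of CPM, 75.4% of its rise was left in Iceland and 83.5% in America. Unigene0020721, the other of the pair with most left, kept 75.4% and 63.3% on the same scale. Unigene0067568 had a 72 h mean below its untreated mean, by 0.26 in Iceland and 0.35 in America on the scale of L. Its 72 h and untreated libraries overlapped in both origins. In Iceland its 24 h libraries, at 1.85, 0.784 and 8.02 CPM, overlapped those of both other groups. It averaged 1.52 ± 0.80, 3.55 ± 3.91 and 1.10 ± 0.254 CPM in untreated, 24 h and 72 h Iceland leaves, and 3.25 ± 1.38, 7.64 ± 4.44 and 2.35 ± 1.3 CPM in those of America (SD, n = 3 each). Unigene0080868 stood 0.25 above its untreated level in Iceland and 0.82 below it in America. America leaves held 4.52, 6.58 and 23.0 CPM of it untreated, 4.15, 8.02 and 219 CPM after 24 h, and 2.77, 4.23 and 11.1 CPM after 72 h. There the 24 h mean rests on replicate 3, and the 72 h libraries overlapped the untreated ones. In Iceland its 24 h libraries, at 9.89, 6.88 and 4.69 CPM, overlapped those of both other groups.

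One library carried much of the America peak. America 24 h replicate 3 was the highest of all 18 libraries in 40 of the 69 members, and in 33 it was over 2-fold above both other America 24 h libraries. Among all unigenes tested 7.10% showed such an excess. The rule asks for a high America 24 h mean, which favours unigenes with 1 high library there. The 33 were picked by this excess, so the difference among their replicates below follows from that choice. In those 33 members the median deviation of log2(CPM + 1) from the mean over the 18 libraries was 2.64 in replicate 3, against 0.24 in replicate 1 and 0.39 in replicate 2. In the other 36 it was 0.93, 0.92 and 0.94 in replicates 3, 1 and 2, which differed little. The median deviation over all unigenes tested was 0.05, 0.06 and 0.08 in these libraries.

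**Figure D3:**
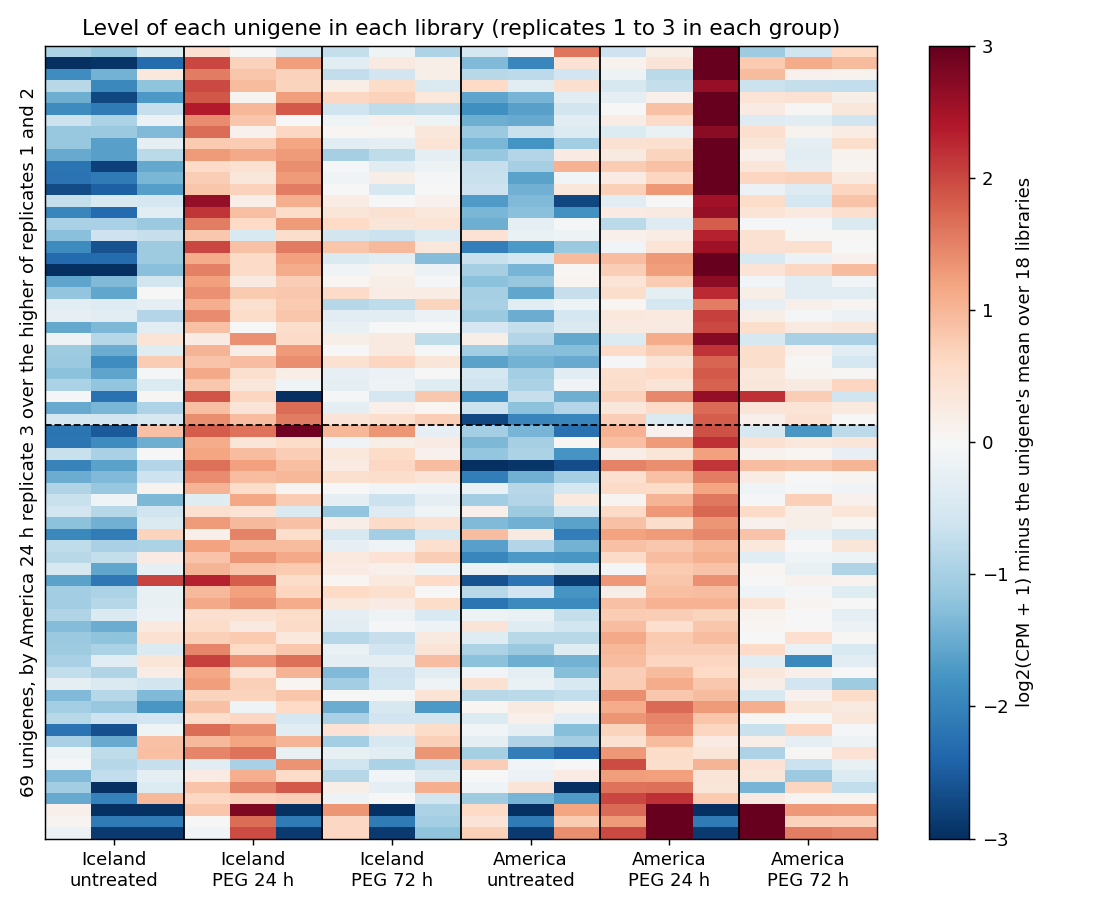
log2(CPM + 1) of the 69 unigenes (rows) in 18 libraries (columns, replicates 1 to 3 in each group), as the difference from the unigene's mean over all libraries; colours end at -3 and 3. Rows are sorted by the excess of America 24 h replicate 3, and the dashed line separates the 33 members over 2-fold from the other 36; the bottom 3 rows are the members with 0 counts in 6 libraries.

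The 2 members with the largest rise, by the smaller of the rises in the 2 origins, belonged to these 33. Unigene0013866 had 1.177, 0.865 and 4 CPM in untreated Iceland leaves, 41.3, 15.2 and 27.8 CPM after 24 h, and 4.37, 3.79 and 3.96 CPM after 72 h. America leaves held 1.27, 1.60 and 4.49 CPM untreated, 7.19, 13.8 and 132 CPM after 24 h, and 8.57, 7.30 and 9.24 CPM after 72 h. In Iceland all 3 libraries of 24 h were high, whereas in America replicate 3 stood far above the rest and replicate 1 lay below all 3 libraries of 72 h. Unigene0055428 had 10.6, 3.84 and 8.69 CPM in untreated Iceland leaves, 115, 32.8 and 75 CPM after 24 h, and 48.1, 50.3 and 39.0 CPM after 72 h. America leaves held 9.68, 11.1 and 24.7 CPM untreated, 25.5, 34.5 and 359.6 CPM after 24 h, and 41.2, 42.3 and 35.3 CPM after 72 h. Its 24 h and 72 h libraries overlapped in both origins.

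Among the untreated America libraries 24 of the 33 were highest in replicate 3, as were 11 of the other 36 and 32.4% of all unigenes tested. Among the untreated Iceland libraries 26 of the 33 were highest in replicate 3, and so were 26 of the other 36 and 53.6% of all unigenes tested. Among the Iceland 24 h libraries 22 of the 33 were highest in replicate 1, 1 in replicate 2 and 10 in replicate 3. The other 36 divided there into 16, 13 and 7, and all unigenes tested into 33.9%, 30.8% and 35.3%. The median coefficient of variation of all 69 members was 47.9% in Iceland and 42.4% in America without treatment, against 32.6% and 25.4% over all unigenes tested. It was 34.3% and 60.3% after 24 h, against 24.7% and 25%, and 18.9% and 19.4% after 72 h, against 22.8% and 21.3%. The medians of the members were above those of all unigenes in the untreated and 24 h groups and below them at 72 h. The rule used the means of these libraries, which favours unigenes with 1 high library at 24 h and disfavours 1 high library at 72 h. It disfavours 1 high untreated library too, though there the medians of the members were above those of all unigenes. What lies behind the untreated medians was not tested. These medians are therefore descriptions of the chosen set. What sets America 24 h replicate 3 apart was not tested.

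Membership depended on single libraries. With America 24 h replicate 3 left out of the group means, 49 unigenes passed the rule and 37 of the 69 remained. Among them were 5 of the 33 with the excess and 32 of the other 36. The 33 were picked by their excess in that library, so this contrast follows in part from the choice. Without Iceland 24 h replicate 1, 57 passed and 46 of the 69 remained. Leaving out untreated Iceland replicate 3 gave 70 unigenes, 62 of them members. As few as 6 members passed with each of the 18 libraries left out in turn, Unigene0000229 among them. CPM on totals scaled by TMM, a normalization against differences in RNA makeup, gave 71 unigenes with 57 of the members.

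In 24 members every 24 h library lay above every untreated and every 72 h library in both origins. This held for 0.44% of all unigenes tested, but the rule used the same contrast. Within Iceland every 24 h library lay above every untreated library in 53 members (29% of all unigenes tested), above every 72 h library in 47 (10.4%) and above both in 42 (3.86%). Within America these counts were 53 (31.9%), 39 (9.32%) and 35 (3.46%). Of the 24, 19 were among the members without the excess in America 24 h replicate 3. In the fit across all unigenes 48 members were called higher at 24 h than untreated in Iceland, where 19.7% of all unigenes were, and 50 in America, where 16% were. Between 72 h and 24 h, 7 members were called lower in Iceland, where 1.72% of all were, and 4 in America, where 0.605% were (edgeR, adjusted p under 0.05). Without America 24 h replicate 3 the 50 became 29. The 7 became 13 without that library, 12 without untreated Iceland replicate 3, 3 or 4 without any 1 Iceland 24 h library, and 1 and 4 without Iceland 72 h replicates 1 and 2. The 4 became 11 without untreated Iceland replicate 3, and 0 or 1 without America 24 h replicate 2 or any 1 America 72 h library. As with the other contrasts of the rule, nothing is read from these counts.

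**Figure D4:**
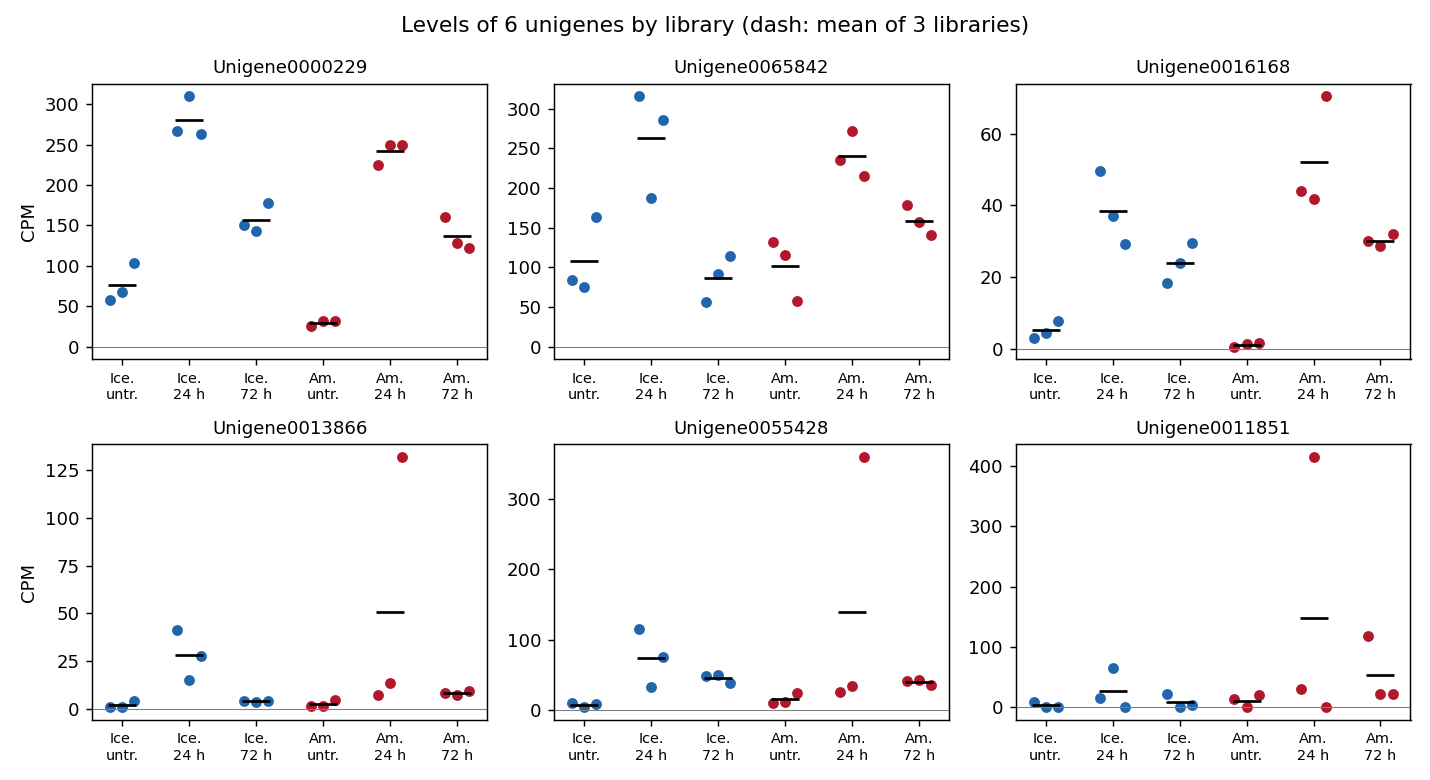
CPM (vertical axes, linear) of 6 members in each library, with Iceland (Ice.) in blue and America (Am.) in red; points are replicates 1 to 3 from left to right, dashes the means of 3 libraries. Unigene0000229 separates the 3 groups of each origin, the high points of Unigene0013866 and Unigene0055428 in America after 24 h are replicate 3, and Unigene0011851 is at 0 in 6 libraries.

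Of the members, 3 had no counts in the same libraries. Unigene0011851, Unigene0035346 and Unigene0058754, named after their values were seen, had 0 counts in 6 libraries: untreated Iceland replicates 2 and 3, Iceland 24 h replicate 3, Iceland 72 h replicate 2, untreated America replicate 2 and America 24 h replicate 3. They had counts in each of the other 12. A count of 0 allows up to 3 counts, or 0.282 to 0.312 CPM in these 6 libraries, counting error alone. Unigene0011851 had 9.42 CPM in the 1 untreated Iceland library with counts, 15.6 and 64.5 CPM in the 2 of 24 h, and 22.5 and 3.87 CPM in the 2 of 72 h. America leaves held 13.2 and 20.4 CPM untreated, 29.6 and 415 CPM after 24 h, and 119, 22.1 and 21.7 CPM after 72 h. The America 24 h mean rests on replicate 2, with 415 CPM.

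Where Unigene0011851 and Unigene0035346 had counts, they were high and low in much the same libraries. In America leaves the counts of Unigene0011851 were 1.06 to 1.46 times those of Unigene0035346, and in Iceland leaves 1.72 to 2.68 times, ranges that did not overlap between origins. Both unigenes were highest in America 24 h replicate 2 and, within Iceland, in 24 h replicate 2. Over all unigenes, 9 had 0 counts in exactly these 6 libraries and counts in the other 12, the 3 members included. The cause of this pattern was not tested.

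Seedlings of the 2 origins were then compared under each treatment. The rule did not use the difference between origins, but its limits on the level and the change in both origins bound it, so these counts are descriptions. Without treatment 5 members were higher in Iceland than in America leaves and 1 was lower (edgeR, adjusted p under 0.05). Over all unigenes tested 2.74% were called higher and 2.34% lower, 5.08% in all. The 6 calls became 13, with 8 of them lower in Iceland, without America 24 h replicate 3, and 3 without untreated America replicate 2. The median log2 fold change of the members, Iceland over America, was -0.28, against 0.03 over all. After 24 h 0 members were called higher and 1 lower, where 7.95% and 5.96% of all unigenes were (13.9% in all), with a median of -0.33 against -0.05. After 72 h 1 was higher and 1 lower, where 8.06% and 5.15% were (13.2% in all), with a median of -0.21 against -0.03. This fit takes 1 spread per unigene from all 6 groups, and members spread more than all unigenes at 24 h, as given above. In a fit to only the groups compared, fewer members were called untreated and more at 72 h, as given at the end. Low counts here therefore do not show that members differ little between origins. At an unadjusted p under 0.05 there were 19, 6 and 8 members untreated, at 24 h and at 72 h, or 27.5%, 8.70% and 11.6%, against 20.1%, 29.2% and 28.9% of all unigenes tested. Among the 20811 unigenes tested that met the limits of the rule on the untreated and mean levels, these shares were 18.1%, 24.8% and 23.3%. By adjusted p 2.26% of those were higher and 2.06% lower in Iceland untreated, 4.25% and 6.22% at 24 h, and 3.47% and 5.66% at 72 h. By DESeq2, for which the share over all unigenes is not given here, 1 member was higher in Iceland at 24 h and 1 lower. The count of 1 at 24 h became 6, with 5 higher and 1 lower in Iceland, without America 24 h replicate 3, and 2 without untreated Iceland replicate 3. It became 0 without Iceland 24 h replicate 1, Iceland 72 h replicate 3, untreated Iceland replicate 1, America 72 h replicate 1 or untreated America replicate 3. The count of 2 at 72 h became 1 without any 1 America 72 h library or Iceland 72 h replicates 2 or 3.

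In untreated leaves Unigene0016168 had 3.03 to 7.81 CPM in Iceland, given above, against 0.555 to 1.56 CPM in America (log2 fold change 2.23 ± 0.39 SE, edgeR adjusted p = 0.00505). The groups did not overlap, and the call was lost with limma-voom (adjusted p = 0.0584) and in an edgeR fit to only the 2 groups compared (adjusted p = 0.110). Unigene0021360 had 2.94, 1.73 and 48 CPM in Iceland, against 0.952, 1.60 and 0.642 CPM in America (log2 fold change 3.94 ± 0.94 SE, edgeR adjusted p = 0.0255). That fold rests on untreated Iceland replicate 3, without which it was 1.27 (edgeR adjusted p = 0.152), and the call was lost in 7 of 24 alternatives (adjusted p up to 0.305). Unigene0001264 had 2.10, 1.83 and 0.878 CPM in Iceland, against 5.47, 6.58 and 5.69 CPM in America (log2 fold change -1.81 ± 0.48 SE, edgeR adjusted p = 0.0422). The groups did not overlap, but its call was lost with any 1 of the 6 untreated libraries left out (edgeR adjusted p = 0.0628 to 0.105), and in 10 of 24 alternatives in all.

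The last of these differed between origins at 72 h as well. Unigene0001264 had 1.22, 3.48 and 0.901 CPM in Iceland at 72 h, against 12.3, 7.01 and 6.51 CPM in America (log2 fold change -2.15 ± 0.48 SE, edgeR adjusted p = 0.00967). This call held in all 24 alternatives. At 24 h, where it had 10.5, 4.71 and 8.54 CPM in Iceland against 12.6, 19.4 and 14.1 CPM in America, the difference did not pass (edgeR adjusted p = 0.191). Unigene0049508 was higher in Iceland at 72 h, with 16.8, 18.5 and 23.0 CPM against 10.6, 12.1 and 11.9 CPM in America (log2 fold change 0.81 ± 0.22 SE, edgeR adjusted p = 0.0271). Unigene0078000 was lower in Iceland at 24 h, with 11.8, 12.6 and 5.31 CPM against 21.4, 23.7 and 14.9 CPM in America (log2 fold change -0.94 ± 0.29 SE, edgeR adjusted p = 0.0401). None of these 3 contrasts had overlapping groups, and the calls of Unigene0049508 and Unigene0078000 were lost in 5 and 10 of 24 alternatives.

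A test of the difference itself asked whether the rise to 24 h differed between the origins. It called 2 members, both with a smaller rise in Iceland, where 0.375% of all unigenes tested were called in that direction and 0.486% in the other, 0.861% in all (edgeR, adjusted p under 0.05). Unigene0016168 rose by 2.74 ± 0.33 SE on the log2 scale in Iceland, against 5.34 ± 0.39 in America, a difference of -2.60 ± 0.49 (edgeR adjusted p = 0.0274). Unigene0000229 rose by 1.67 ± 0.16 in Iceland, against 2.78 ± 0.17 in America, a difference of -1.10 ± 0.22 (edgeR adjusted p = 0.0385). These calls were lost in 6 of 24 alternatives for Unigene0016168 and in 15 of 24 for Unigene0000229. The count of 2 became 0 without untreated America replicate 2, Iceland 24 h replicates 2 or 3 or untreated Iceland replicate 2. It became 1 without America 24 h replicates 1 or 2, America 72 h replicates 2 or 3, Iceland 24 h replicate 1 or Iceland 72 h replicates 1 or 2. Both stood higher in Iceland than in America without treatment, and at 24 h their difference between origins did not pass (edgeR adjusted p = 0.451 and 0.261). For the fall between 24 h and 72 h, 0 members differed between origins by edgeR, limma-voom or DESeq2, and 1 had an unadjusted edgeR p under 0.05, against 10.6% of all unigenes tested. By adjusted p 0.0809% of all unigenes tested differed, 0.0518% with a higher and 0.0291% with a lower value in Iceland. The lowest p-values there belonged to Unigene0065842 and Unigene0001264, with differences of -1.01 ± 0.44 and -1.26 ± 0.64 SE in the fold change of 72 h over 24 h (edgeR adjusted p = 0.435 and 0.514). The rule asks for a rise and a fall in both origins, which bounds these differences, so few calls do not show that the origins respond alike.

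To read the pattern in libraries that did not choose it, the rule was applied to 1 origin alone and the resulting unigenes were examined in the other. The America libraries chose 381 unigenes and the Iceland libraries 532. The 69 members are those on both lists, 18.1% of the America list and 13.0% of the Iceland list. All unigenes of both lists passed the filter on low counts. The lists were not matched to all unigenes tested in abundance, since each asks for a level of 1 CPM in untreated leaves of the origin that chose it.

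Of the 381 unigenes chosen in America, 139 were higher after 24 h than untreated in Iceland leaves and 13 were lower (edgeR, adjusted p under 0.05). These are 36.5% and 3.41% of the list, against 19.7% and 20.6% of all unigenes tested. Their median log2 fold change in Iceland was 0.88, against 0.02 over all. From 24 h to 72 h 16 of them were lower and 4 higher in Iceland, 4.2% and 1.05%, against 1.72% and 2% over all, with a median of -0.35 against 0.02. The count of 16 was 1 without Iceland 72 h replicate 1, 4 without Iceland 72 h replicate 2 or 24 h replicate 1, 6 without Iceland 24 h replicate 2, 9 without America 72 h replicate 2, 10 without untreated Iceland replicate 1 and 25 without untreated Iceland replicate 3.

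The America list itself depended on 1 library. Chosen without America 24 h replicate 3 it held 289 unigenes, 178 of them from the first list. In Iceland leaves 70 of these were higher after 24 h and 23 lower, 24.2% and 7.96%, against 19.7% and 20.6% of all unigenes tested. The share called higher was nearer to that of all unigenes than the 36.5% of the first list was. The median log2 fold change was 0.51, against 0.02 over all. From 24 h to 72 h 19 were lower and 0 higher, so that 6.57% of the list was lower. Over all unigenes tested 1.72% were lower and 2% higher. The median was -0.45, against 0.02 over all. At 72 h 44 were higher than untreated in Iceland and 39 lower, against 107 and 31 of the 381 unigenes of the first list, where 23.4% and 23% of all unigenes tested were.

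Of the 532 unigenes chosen in Iceland, 170 were higher after 24 h than untreated in America leaves and 5 were lower, 32.0% and 0.94%, against 16% and 15.1% of all unigenes tested. Their median log2 fold change in America was 0.71, against 0.01 over all. At 72 h 151 were higher than untreated there and 9 lower, where 18.4% and 18% of all unigenes were. From 24 h to 72 h 4 were lower and 3 higher in America, 0.752% and 0.564%, against 0.605% and 0.809% over all, a share near the background, with a median log2 fold change of -0.14 against -0.01. The count of 4 was 0 to 2 without America 24 h replicate 2 or any 1 America 72 h library, and 12 without untreated Iceland replicate 3. It was 30 by DESeq2 and 19 with no filter on low counts, for which the shares over all unigenes are not given here. Chosen without untreated Iceland replicate 3 the Iceland list held 533 unigenes. Of these 163 were higher and 12 lower at 24 h in America, 30.6% and 2.25%, against 16% and 15.1% of all unigenes tested. From 24 h to 72 h 5 were lower and 3 higher, 0.938% and 0.563%, against 0.605% and 0.809% over all.

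**Figure D5:**
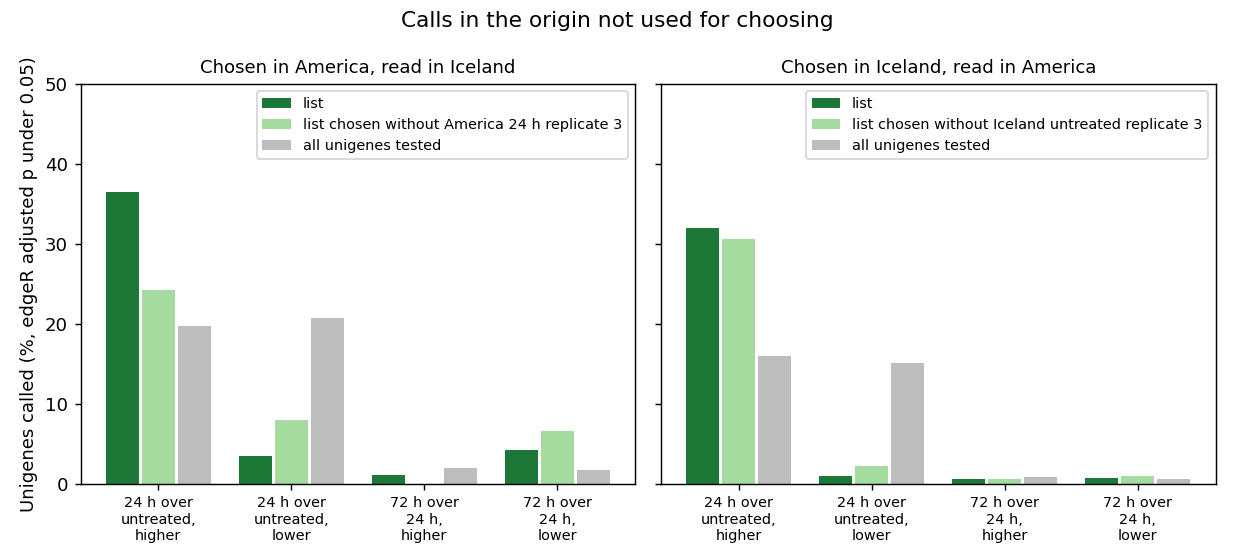
Share of unigenes called higher or lower (edgeR, adjusted p under 0.05) in the origin that did not choose them, for 24 h over untreated and 72 h over 24 h leaves. The list chosen in America (left, 381 unigenes) was called higher at 24 h in 36.5% in Iceland, and the list chosen in Iceland (right, 532) in 32.0% in America, against 19.7% and 16% of all unigenes tested in grey; pale green bars give the lists chosen without 1 library.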

How the data were processed

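Leaf RNA was extracted with Trizol and made into libraries by standard Illumina protocols, per the labels. RSEM 1.3.1, cutadapt 1.18 and bcl2fastq 2.0.1 are listed, with no role, in the submitters' processing notes. How unigenes were assembled or annotated, and strand, was not given in the sources used here. Per the file headers each library has a count column and an FPKM column. All deposited counts are whole; whether the authors rounded RSEM estimates is not stated, and unigenes of near-identical sequence may share reads. Values in the authors' FPKM columns equal the counts divided by 1 length per unigene and the library total, to within 0.069% in 682 unigenes with high counts. FPKM was used for levels per length, for the implied length and as an alternative scale, not in tests.

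Members and lists were chosen with earlier results of these data known. CPM for the rule used column totals. Tests used edgeR 4.0.16 in R 4.3.3: filterByExpr kept 30895 unigenes, TMM scaled the libraries, and 1 quasi-likelihood fit of 6 group means (18 libraries, 12 residual degrees of freedom) gave 11 contrasts, each adjusted by Benjamini-Hochberg over all unigenes at 0.05. TMM factors averaged 0.877 and 0.895 in untreated Iceland and America leaves, and 1.02 to 1.10 under PEG, which lowers fold changes against untreated leaves relative to column totals. Named unigenes were taken by a rule, at most 2 in each direction per comparison: highest and lowest mean CPM, nearest the threshold, largest rise, most and least left at 72 h, and, between origins, the largest called folds with a mean of at least 5 CPM in 1 group and no overlap, or the lowest p. The fit was also run on counts simulated from its own estimates of spread, with changes set in the Iceland 24 h libraries only. No single library was set apart in them, so the run says nothing about libraries such as America 24 h replicate 3. Alternatives were DESeq2 1.42.0 size factors and Wald test, limma-voom 3.58.1, no filter, only the groups compared, a replicate block, leaving out each library, and changes to the rule. Lists chosen without 1 library were added after seeing the data. Same-numbered replicates did not deviate together, so the block is an alternative only. Marker and pathway lists written as gene names could not be applied, since the table has no names.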

Additional observations from a re-analysis of the deposited data

Results flagged for a closer look

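In 2 members the fit called a difference between origins in the rise to 24 h (edgeR, adjusted p under 0.05). Over all unigenes tested 0.861% were called. The rule bounds the rise in both origins, so these calls are descriptions. The difference in log2 fold change, Iceland minus America, was -2.60 in Unigene0016168 and -1.10 in Unigene0000229. Both rose in each origin, less in Iceland, where their untreated level was higher. In untreated Iceland leaves replicate 3 was the highest library for both, at 7.81 CPM and 103 CPM. The call was lost in 6 of 24 alternatives for Unigene0016168 (adjusted p up to 0.107) and in 15 of 24 for Unigene0000229 (up to 0.113).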

How the results depend on the processing

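With 3 libraries a group, leaving out 1 moved many counts. The ranges over the 18 refits were 49 to 84 unigenes passing the rule; for members called between origins 3 to 13 untreated, 0 to 6 at 24 h and 1 to 3 at 72 h, 0 to 3 for the difference of the rise and 0 to 0 for that of the fall. For the America list read in Iceland they were 93 to 180 higher at 24 h, 1 to 25 lower at 72 h than at 24 h, and 75 to 154 higher at 72 h than untreated; for the Iceland list read in America 120 to 185, 0 to 12 and 103 to 164. For members within Iceland they were 32 to 52, 1 to 13 and 8 to 26, and within America 29 to 54, 0 to 11 and 9 to 18.

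Members called between origins without treatment (6) were 13 by DESeq2, 2 by limma-voom, 14 with no filter and 1 in a fit to only the groups compared; at 24 h (1) they were 2 by DESeq2 and 3 with no filter; at 72 h (2) they were 11 in a fit to only the groups compared. The 2 members with a different rise became 0 by limma-voom and in a fit to only the groups compared. Calls for 72 h against 24 h in members within America (4) were 24 by DESeq2, 7 by limma-voom, 18 with no filter and 2 with only the groups compared, and within Iceland (7) they were 15, 13 and 11 by DESeq2, with no filter and with only the groups compared. In the America list read in Iceland (16) they were 32 by DESeq2, and in the Iceland list read in America (4) they were 30, 7 and 19 by DESeq2, limma-voom and with no filter. Members higher at 72 h than untreated in America (16) were 9 by limma-voom. The America list chosen without America 24 h replicate 3 gave 70 and 44 unigenes higher in Iceland at 24 h and 72 h, in place of 139 and 107. These are 24.2% and 15.2% of its 289 unigenes, in place of 36.5% and 28.1% of 381. Over all unigenes tested 19.7% and 23.4% were called higher. A minimum of 5 CPM in untreated leaves left 29 members. For the other methods and filters the shares over all unigenes are not given here. Their counts therefore show only that the calls depend on the method, not that more or fewer members change. As above, nothing is read from the contrasts that the rule used. The cause of these shifts was not tested.

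Correlations of the deviations of same-numbered replicates lay between -0.146 and 0.165, so the numbers do not pair the libraries. With a replicate block the members called between origins were 8, 1 and 2, 2 differed in the rise, and the America list in Iceland gave 139, 13 and 111 and the Iceland list in America 167, 4 and 145; no count moved by over 1.5 times. The block ended the calls of Unigene0021360 between untreated origins (adjusted p = 0.0640) and of Unigene0000229 for the rise (adjusted p = 0.0553). For the rise it called Unigene0049508 (adjusted p = 0.0351, against 0.0534 without the block), so that 1 of the 2 calls was shared. Low counts limit the least abundant members, where 3 counts are 0.238 to 0.312 CPM.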
